A study of Rattus norvegicus with 4 samples.

Results

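The genes described are S100g, which encodes calbindin-D9k, and 8 relatives from the family of EF-hand proteins. These are S100a4, S100a8, S100a9, S100a10, S100b, Calb1, Calb2 and Pvalb. Every probe set whose only gene symbol in the platform annotation is one of these 9 was taken. That gave 11 of the 7006 probe sets with 1 symbol, for 9 of 4736 genes. S100g and S100b had 2 probe sets each and the other 7 genes 1 each. The samples were myometrium, the smooth muscle of the uterine wall, from female rats aged 60 days whose ovaries had been removed a week earlier. One group was taken 24 h after estradiol benzoate, a slowly released estradiol ester given under the skin at 10 µg per kg, and one 24 h after vehicle. The other pair of groups was taken 6 h after the same ester or vehicle. Each of the 4 groups was measured on 1 array carrying total RNA pooled from 6 animals, so animals within a group cannot be told apart.

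An EF-hand is a helix, a short loop and a second helix that together hold a calcium ion. The S100 proteins are small and mostly work as pairs, while calbindins and parvalbumin chiefly buffer calcium. Calbindin-D9k carries calcium through cells of the intestine, where vitamin D induces it, and in the rat uterus, in myometrium and endometrial stroma, estrogen induces it. Within the S100 family S100a10 holds annexin A2 at membranes, S100a4 binds non-muscle myosin and is common in fibroblasts, S100a8 and S100a9 form calprotectin in neutrophils, and S100b is a glial protein. Calb1 encodes calbindin-D28k of kidney and nerve cells, Calb2 calretinin of nerve cells and mesothelium, and Pvalb the parvalbumin of fast skeletal muscle and some neurons.

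Signals are MAS5 units, in which the deposited arrays shared a trimmed mean of 500. A probe set counts as above the floor when its signal exceeds the 40th percentile of its array, which lay at 89.5 and 100.9 on the estradiol and control arrays at 24 h, and at 102.5 and 108.2 on the arrays labelled estradiol and control at 6 h. A difference of at least 2-fold, that is 1 on the log2 scale, with the brighter array above its floor is called higher or lower. With 1 array per group no test was made, and each difference is one between 2 pools. The pair of arrays from 24 h and the pair from 6 h were read on different days, so the effects of time and of scan day cannot be told apart. For the 24 h control the recorded wash ended in a communication error. The smooth muscle markers Acta2 and Myh11 were bright on all 4 arrays, between 10961 and 17195 for Acta2 and between 10608 and 17850 for Myh11. The levels of Igf1, Pgr, Hsd11b2 and S100g, known targets of estrogen in the uterus, go against the labels at 6 h. Igf1, Pgr and Hsd11b2 were named because earlier results of these same data had shown this. They are therefore not independent evidence about the labels. In a list of uterine estrogen-responsive genes 10 of 22 above the floor were higher and 2 lower with estradiol at 24 h. At 6 h 2 were higher and 9 lower on the array labelled estradiol. Over all genes above the floor on at least 1 array, 9.03% were higher and 8.34% lower at 24 h. At 6 h these shares were 6.65% and 5.25%. The 2 genes of the list higher at 6 h were Igfbp5 (6.05-fold) and Igfbp3 (4.01-fold), and C3 and Kap were under the floor on both 6 h arrays. Directions at 6 h are therefore given for the arrays as labelled.

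Of the 11 probe sets 5 were above the floor on all 4 arrays, and they belong to 4 genes, S100g, S100a10, S100a4 and Calb2. The other 6 probe sets, of S100a8, S100a9, S100b, Calb1 and Pvalb, were above the floor on 0 of 4 arrays. At 24 h 3 of the 11 probe sets were higher with estradiol, both of S100g and that of S100a10, and 0 were lower. Over the 6157 probe sets above the floor on at least 1 array, 16.7% passed the same 2-fold rule at 24 h, 8.3% as higher and 8.36% as lower. With the arrays brought to a common median instead, 630 probe sets were higher and 368 lower, in place of 511 and 515, and the median log2 difference moved to -0.03, against -0.17 with the trimmed mean. Quantile normalization gave 552 and 389. In every median given here, probe sets under the floor on both arrays enter at the log2 ratio of the floors. At 6 h 2 of the 11 were lower on the array labelled estradiol, both of S100g, and 0 were higher, against 5.38% lower and 6.94% higher among all.

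**Figure D1:**
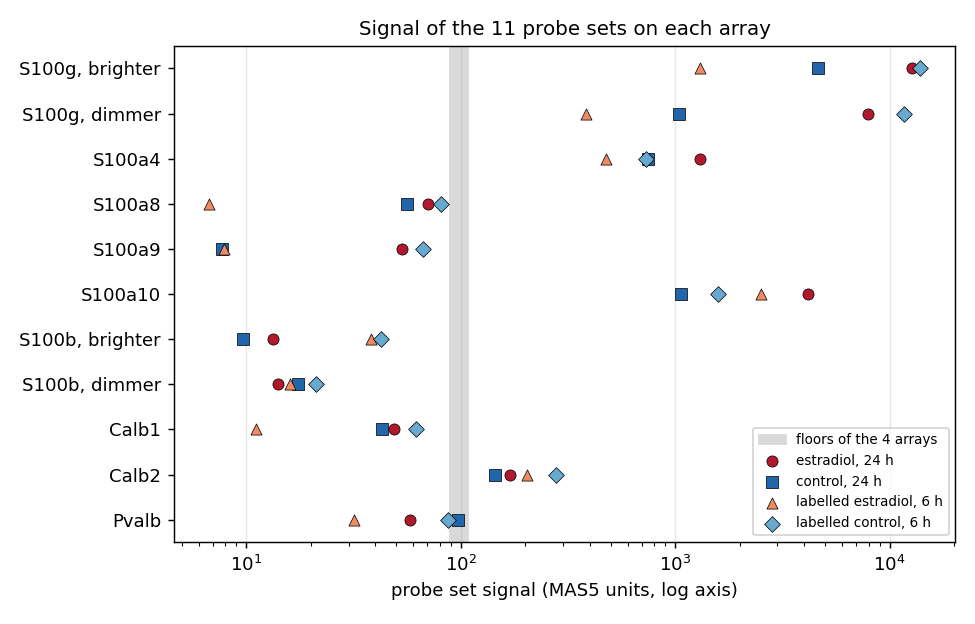
Signal of each of the 11 probe sets (log axis, MAS5 units) on the 4 arrays, 1 point per array, with the range of the 4 floors shaded. The points of S100g, S100a10, S100a4 and Calb2 lie right of the floors on every array and those of the other 5 genes left of the floor of their own array. Probe sets of different genes are not on a common scale of abundance.

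S100g was brightest on 2 arrays, estradiol at 24 h and the one labelled control at 6 h, and lower on the other two. Its brighter probe set, K00994mRNA_s_at, read 12673 with estradiol against 4619 in the control at 24 h, and 1306 under the estradiol label against 13858 under the control label at 6 h. The second probe set, rc_AI013389_at, read 7936 with estradiol against 1040 in the control at 24 h. At 6 h the second probe set read 384 under the estradiol label against 11681 under the control label. Both probe sets thus placed the 4 arrays in the same order, with the labelled control at 6 h highest and the labelled estradiol at 6 h lowest.

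The 2 probe sets of S100g gave the same directions and different sizes. At 24 h S100g was 2.74-fold higher with estradiol by the brighter probe set and 7.63-fold by the dimmer, log2 differences of 1.46 and 2.93. At 6 h it was 10.6-fold lower on the array labelled estradiol by the brighter and 30.4-fold by the dimmer. The dimmer probe set gave the larger difference in all 4 comparisons of arrays, by 1.09 to 1.90 on the log2 scale. The suffix _s_at of the brighter probe set marks, on these arrays, probes that can match more than 1 transcript.

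The 2 control pools also differed in S100g. The control at 24 h was 3.0-fold lower than the labelled control at 6 h by the brighter probe set and 11.2-fold lower by the dimmer. These were the 2 of 11 probe sets called between the controls, with 0 higher, where 9.45% of all probe sets were lower and 8.43% higher. Between the arrays labelled estradiol, S100g was 9.70-fold and 20.7-fold higher at 24 h than at 6 h. Set against the labelled control at 6 h, the estradiol array at 24 h was 1.09-fold lower by the brighter and 1.47-fold lower by the dimmer probe set, under 2-fold. The control at 24 h was 3.54-fold and 2.71-fold higher than the array labelled estradiol at 6 h.

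**Figure D2:**
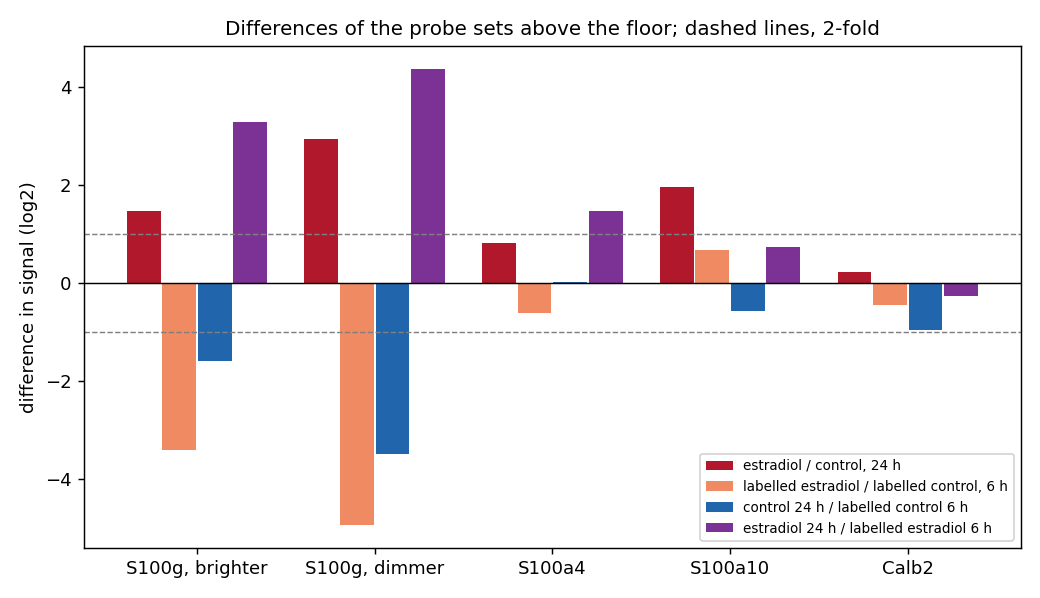
Log2 differences of the 5 probe sets above the floor in 4 comparisons of arrays, 1 bar per comparison, each from 1 array against 1 array and so without error bars. The bars of both S100g probe sets pass the dashed 2-fold lines in all 4 comparisons, S100a10 passes at 24 h, S100a4 between the arrays labelled estradiol, and Calb2 in none.

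S100a10 had its highest signal with estradiol at 24 h and its lowest in the control at 24 h. The signals were 4170 with estradiol against 1069 in the control at 24 h, and 2515 under the estradiol label against 1583 under the control label at 6 h. The difference was 3.90-fold at 24 h. At 6 h S100a10 was 1.59-fold higher on the array labelled estradiol, under the 2-fold rule and opposite in sign to S100g. The estradiol array at 24 h was also 2.63-fold above the labelled control at 6 h, and 1.66-fold above the array labelled estradiol at 6 h. Anxa2, which encodes annexin A2, the partner of S100a10, read 4957 with estradiol against 4143 in the control at 24 h, 1.2-fold higher. At 6 h Anxa2 read 2195 under the estradiol label against 3567 under the control label, 1.63-fold lower, so neither difference of Anxa2 reached 2-fold.

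S100a4 was highest with estradiol at 24 h and lowest on the array labelled estradiol at 6 h. It read 1310 with estradiol against 746 in the control at 24 h, and 474 under the estradiol label against 730 under the control label at 6 h. The log2 differences were 0.81 at 24 h and -0.62 at 6 h, both under the 2-fold rule. The 2 controls differed by 0.03 on the log2 scale. Between the arrays labelled estradiol S100a4 was 2.76-fold higher at 24 h, which with S100g made 3 of 11 probe sets higher and 0 lower, against 5.99% higher and 9.29% lower among all. Scaled to a common median these arrays had 598 probe sets higher and 343 lower, with quantile normalization 448 and 387, in place of 369 and 572. Of 12 markers of fibroblasts and stroma, cells in which S100a4 is common, 0 were higher and 2 lower at 24 h, and their summed signal was 75810 with estradiol against 75261 in the control. Of all genes above the floor 9.03% were higher and 8.34% lower. At 6 h 1 marker was higher and 1 lower on the array labelled estradiol, beside 6.65% and 5.25% of all genes. The summed signal then was 59630 under the estradiol label against 54893 under the control label, a difference opposite in sign to that of S100a4.

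S100a4 is the 1 gene among the 4 above the floor that the RefSeq promoter table lists, and its promoter is shown because it holds both short motifs that were searched for. The window runs from 250 bases before to 50 after the gene start, on the plus strand of GRCr8 at chr2:178388279-178388578. Capitals mark the TATA box letters TATAAA, whose first base lies 31 bases before the start, and GGTCA, 1 arm of the palindrome that the estrogen receptor binds, whose first base lies 23 bases before it.
S100a4 promoter: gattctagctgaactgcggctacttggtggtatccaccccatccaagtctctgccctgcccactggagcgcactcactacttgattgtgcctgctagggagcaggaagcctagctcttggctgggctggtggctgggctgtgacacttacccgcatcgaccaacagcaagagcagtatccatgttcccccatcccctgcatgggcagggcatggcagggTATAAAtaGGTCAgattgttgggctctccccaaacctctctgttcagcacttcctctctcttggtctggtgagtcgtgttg
On both strands, 40.5% of 33469 promoters of the same length hold GGTCA and 14.2% hold TATAAA. The full palindrome GGTCANNNTGACC, which holds this arm on each side, is in 0.0269% of them and in none of the 4 member promoters the table lists, those of S100a4, S100a9, S100b and Pvalb. Among these, S100a4 and Pvalb hold GGTCA, and S100a4 and S100a9 hold TATAAA.

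Calb2 was above the floor on all 4 arrays, with the lowest signals of the 5 probe sets above it. It read 169.5 with estradiol against 144.5 in the control at 24 h, and 203.7 under the estradiol label against 279.1 under the control label at 6 h. Its differences stayed under 2-fold in the 4 comparisons of arrays, with a log2 difference of 0.23 at 24 h and -0.45 at 6 h. The largest of the 4, -0.95, lay between the 2 controls. The mesothelium list had 2 genes on the array, and 1 of them, Krt5, was under the floor on all 4 arrays. The other, Wt1, read 308.1 with estradiol against 1059 in the control at 24 h, 3.44-fold lower. At 6 h Wt1 was 3.40-fold higher on the array labelled estradiol, at 868.8 against 255.7. A second Wt1 probe set gave the same directions at just under 2-fold, and the third was under the floor on all arrays.

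The neutrophil pair S100a8 and S100a9 was not above the floor on any array. S100a8 read 70.3 with estradiol against 56.3 in the control at 24 h, and 6.72 under the estradiol label against 81.1 under the control label at 6 h. S100a9 read 53.2 with estradiol against 7.75 in the control at 24 h, and 7.86 under the estradiol label against 66.6 under the control label at 6 h. No fold is given for them, since both arrays of each comparison lay at or under the floor. Of 18 genes on the array from a list of granulocyte markers, 10 were likewise under the floor on every array, among them Itgam, Cxcr2 and Mmp8. The 8 above it include the mast cell proteases Cma1, Cpa3, Tpsab1 and Tpsb2, none of them called at either time. Of the 8, 2 were lower and 0 higher at 24 h, beside 8.34% and 9.03% of all genes. At 6 h 2 were lower, Lcn2 and Il1b, and 0 higher on the array labelled estradiol, beside 5.25% and 6.65%. The other probe sets of Il1b were not called at either time. Lcn2, a neutrophil iron-scavenging protein also made by epithelium, read 82.8 with estradiol against 232.8 in the control, at least 2.60-fold lower. Cxcr1, a chemokine receptor of neutrophils, was 2.62-fold lower. Tlr4, a receptor for calprotectin, read 108.9 with estradiol against 185.1 in the control at 24 h, under the 2-fold rule.

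The glial, nerve and muscle members were also under the floor throughout. The 2 probe sets of S100b lay between 9.71 and 42.6 over the 4 arrays. Of 15 nerve and Schwann cell markers on the array 10 were above the floor, among them Pmp22, a myelin protein, at 3345 to 5661, and 5 were under it, among them Sox10 and Mbp. At 24 h 1 of the 10 was higher and 0 lower, and at 6 h 0 were higher and 2 lower on the array labelled estradiol. The summed signal of that list was 7650 with estradiol against 8490 in the control at 24 h. At 6 h the sum was 6691 under the estradiol label against 13213 under the control label. Most of the 6 h difference was Ngfr, at 559.6 against 5914, and the other Ngfr probe set was not called. Calb1 read 48.6 with estradiol against 42.9 in the control at 24 h, and 11.1 under the estradiol label against 62.0 under the control label at 6 h. Pvalb came nearest to the floor, at 57.8 with estradiol against 97.1 in the control at 24 h, and 31.7 under the estradiol label against 86.9 under the control label at 6 h. Of 12 skeletal muscle markers 7 were under the floor on every array, among them the fast myosins Myh2 and Myh4, and 5 were above it. Myh1, another fast myosin, was above the floor on all 4 arrays, at 143 to 286, and Acta1, skeletal muscle actin, at 1896 to 7999. At 24 h 2 of the 5, Acta1 and Myh1, were higher and 0 lower, and at 6 h 0 were higher and 1 lower on the array labelled estradiol. The shares of all genes beside both lists were 9.03% higher and 8.34% lower at 24 h, and 6.65% and 5.25% at 6 h. The summed signal of the skeletal muscle markers was 8875 with estradiol against 3496 in the control at 24 h. At 6 h the sum was 2956 under the estradiol label against 6635 under the control label. Most of each sum was Acta1, at 7999 with estradiol against 2676 in the control at 24 h. At 6 h Acta1 read 1896 under the estradiol label against 5269 under the control label. A difference in S100a8, S100a9, S100b, Calb1 or Pvalb, all under the floor, was not measurable. With a floor at the 20th percentile S100a8, S100a9, Calb1 and Pvalb passed the 2-fold rule as lower on the array labelled estradiol at 6 h. At that floor 774 of the 8740 probe sets compared were lower and 719 higher. The folds of these 4 genes come from signals under the main floor and are uncertain. Pvalb was 2.75-fold lower, S100a8 at least 2.65-fold, S100a9 at least 2.17-fold and Calb1 at least 2.02-fold.

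**Figure D3:**
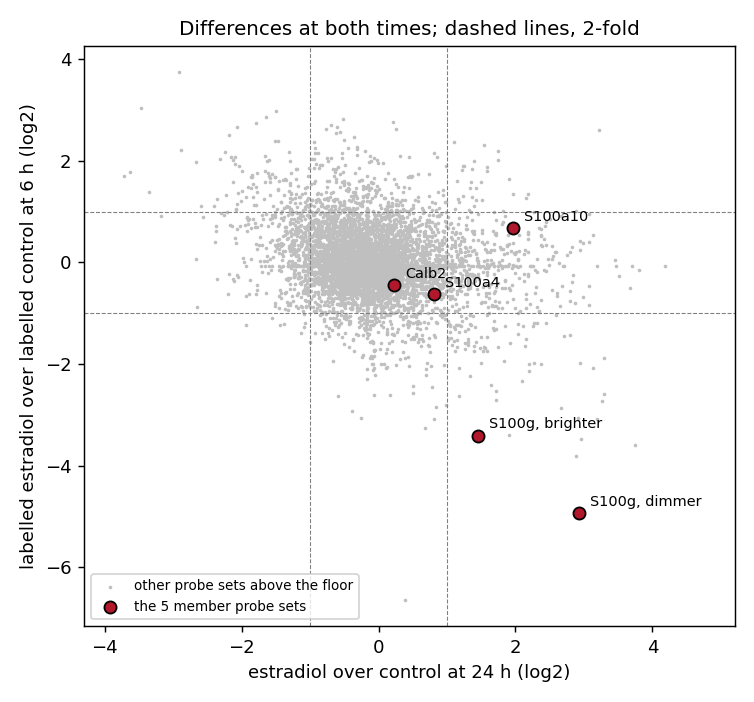
Log2 difference at 24 h (horizontal, estradiol over control) against that at 6 h (vertical, labelled estradiol over labelled control) for the 5 member probe sets above the floor, in red, and the other probe sets above the floor on at least 1 array, in grey. Both S100g points lie in the lower right, past 2-fold in each direction, and S100a10 lies right of the 2-fold line with a difference above 0 at 6 h.

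The genes most like S100g over the 4 arrays were found by the root mean square difference between log2 values centred on each gene's mean, for the brightest probe set of 3621 other genes. The 10 nearest were B4galt1 (0.27), Pgr (0.50), Ngfr (0.52), Hsd11b2 (0.53), Cd24 (0.54), Krt18 (0.55), Krt8 (0.60), Scarb2 (0.61), Plaur (0.66) and Insig1 (0.66), on the log2 scale. The second probe set of S100g itself lay 0.78 from the first. B4galt1, a galactosyltransferase, read 894.4 with estradiol against 274.2 in the control at 24 h, and 68.6 under the estradiol label against 666.9 under the control label at 6 h. Ngfr, the low-affinity nerve growth factor receptor, read 3190 with estradiol against 846.5 in the control at 24 h, and 559.6 under the estradiol label against 5914 under the control label at 6 h. All 10 genes were higher with estradiol at 24 h and lower on the array labelled estradiol at 6 h by at least 2-fold. These calls are for the brightest probe set. The dimmer probe sets of Ngfr and Scarb2, and 2 of the other 3 of Pgr, were not called at either time. Since the distance is measured on these same 4 arrays, this describes them and tests nothing. S100a4 lay 1.01 from S100g, at place 117, Calb2 1.34 and S100a10 1.5. By Pearson correlation over the 4 arrays among genes spanning at least 1 log2 unit, the first 10 shared 1 gene with these, B4galt1.

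**Figure D4:**
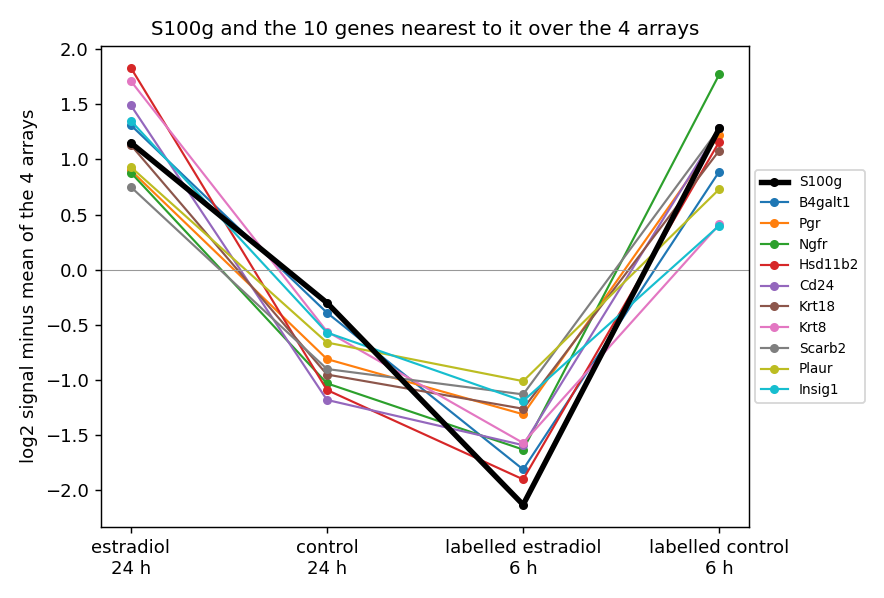
Log2 signal minus its mean over the 4 arrays for S100g (thick black line, brighter probe set) and the 10 genes nearest to it, 1 point per array. Every line is above 0 with estradiol at 24 h and with the control label at 6 h, and below 0 on the other two arrays.

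Krt8, Krt18 and Cd24 among these genes are epithelial markers. In the list of epithelial markers, 7 of 10 genes above the floor were higher with estradiol and 0 lower at 24 h, and at 6 h 0 were higher and 4 lower on the array labelled estradiol. Over all genes above the floor 9.03% were higher and 8.34% lower at 24 h, and 6.65% higher and 5.25% lower at 6 h. The summed signal of the list was 6684 with estradiol against 1733 in the control at 24 h, and 1266 under the estradiol label against 4313 under the control label at 6 h. All 10 of its genes on the array were above the floor on at least 1 array. Their part in the S100g differences was not tested, and in pooled tissue more cells of a type and more RNA per cell cannot be told apart. The summed signal of 10 smooth muscle markers was 118302 with estradiol against 111924 in the control at 24 h, and 76861 under the estradiol label against 94483 under the control label at 6 h, with 0 of them called at either time.

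Among 40 other genes of EF-hand lists, none was called both higher at 24 h and lower on the array labelled estradiol at 6 h. S100g had both calls. The share of all genes with both calls was not counted. Of all genes above the floor 9.03% were higher at 24 h and 5.25% lower at 6 h. These single shares do not give the share with both calls. Without it, a count of none among 40 cannot be read as setting S100g apart. The 7 lists, chosen with earlier results of these data known, hold EF-hand genes and relatives of these. Of their genes 54 were on the array and 40 above the floor. At 24 h 2 of the 40 were higher and 3 lower, with a median log2 difference of -0.15, beside -0.17 over all genes above the floor. At 6 h 1 was higher on the array labelled estradiol and 0 lower, with a median of 0.06 beside -0.06. Genes under the floor on both arrays enter these medians at the log2 ratio of the floors, so the medians are partly set by the floors. In neither direction and at neither time did the share called exceed that of all genes.

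Among these lists, the one that holds the calpains had 7 genes above the floor, 2 higher and 1 lower at 24 h. Of all genes above the floor 9.03% were higher and 8.34% lower. The 3 called were calpains, most of which are calcium-activated proteases. Capns1, their shared small subunit, read 4838 with estradiol against 1390 in the control at 24 h, and 4240 under the estradiol label against 4089 under the control label at 6 h. Capn1, the large subunit of mu-calpain, read 1267 with estradiol against 374 in the control at 24 h, and 965 under the estradiol label against 966 under the control label at 6 h. In both genes the control array at 24 h stood apart from the other 3, which lay closer together. The differences at 24 h were 3.48-fold for Capns1 and 3.39-fold for Capn1, and they rest on that array. Of the other 2 probe sets of Capns1, 1 gave 4.03-fold and 1 gave 1.3-fold at 24 h. Capn6, in these lists by its family, is a calpain without protease activity. It was 3.28-fold lower at 24 h, at 106.8 with estradiol against 349.9 in the control.

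Outside the calpains, Sparcl1, a secreted matrix protein, was 2.95-fold lower at 24 h, at 2571 with estradiol against 7584 in the control. Actn2, an actin crosslinker of striated muscle, was at least 2.94-fold lower, since its signal with estradiol was under the floor. Rcn3, of the endoplasmic reticulum, was the EF-hand gene called at 6 h, 2.19-fold higher on the array labelled estradiol by the brighter of its 2 probe sets and 1.55-fold by the dimmer. S100a1, the 1 other S100 gene above the floor, read 552.6 with estradiol against 800.0 in the control at 24 h, and 765.2 under the estradiol label against 713.3 under the control label at 6 h. Calm2, a calmodulin gene, read 3634 with estradiol against 4967 in the control at 24 h, also under 2-fold. Of 10 genes of calmodulin, troponin C and the myosin light chains above the floor, 0 were called at either time.

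**Figure D5:**
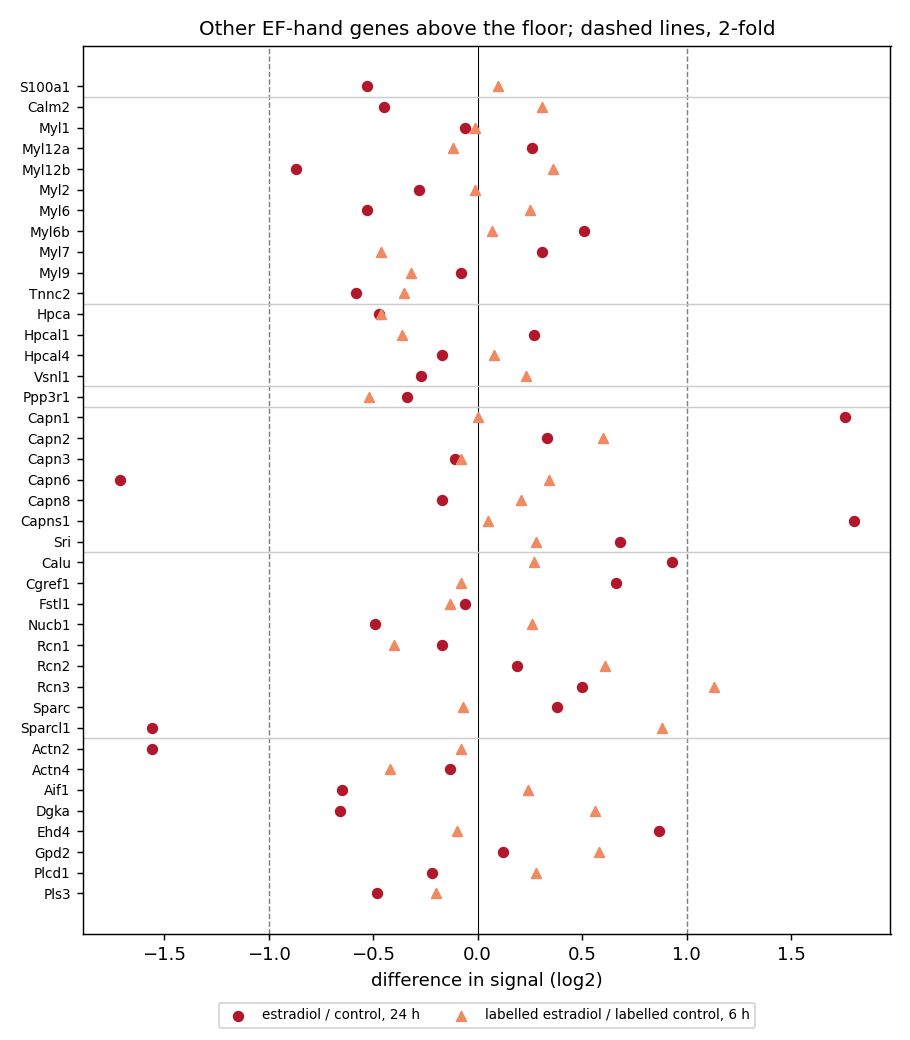
Log2 differences of the 40 other genes of the EF-hand lists above the floor, each by its brightest probe set and grouped by list. Red circles show 24 h (estradiol over control), and orange triangles 6 h (labelled estradiol over labelled control). At 24 h Capn1 and Capns1 lie right of the 2-fold line and Capn6, Sparcl1 and Actn2 left of it, and at 6 h Rcn3 lies right of it. A gene under the floor on both arrays is drawn at the log2 ratio of the floors.

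A further list held genes that move calcium across cells with calbindin-D9k in the intestine or act with vitamin D. Of 10 above the floor 0 were higher and 1 lower at 24 h, beside 9.03% and 8.34% of all genes, with a median log2 difference of -0.28. At 6 h 1 was higher and 0 lower on the array labelled estradiol, beside 6.65% and 5.25% of all genes. Vdr, the vitamin D receptor, read 308.3 with estradiol against 215.9 in the control at 24 h, and 302.5 under the estradiol label against 375.3 under the control label at 6 h, under 2-fold at both times. Cyp24a1, which breaks down active vitamin D, was 2.32-fold lower at 24 h, at 104.5 with estradiol against 242.2 in the control, and its other probe set was under the floor. Atp2b4, a calcium pump of the plasma membrane, was 1.01-fold higher at 24 h and 2.72-fold higher on the array labelled estradiol at 6 h, at 308.2 against 113.4, while its other probe set was 1.11-fold lower there. Slc8a1, the sodium-calcium exchanger, read 774.0 with estradiol against 804.9 in the control at 24 h.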

How the data were processed

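Rat myometrium RNA was measured on 4 Affymetrix RG_U34A arrays, 1 per group. The intensity values are those the authors deposited, made with MAS5 per the submitters' processing notes, with version and settings not given in the sources used here. MAS5 subtracts mismatch signal and scales each array, so a low signal is uncertain. Of 8799 probe sets 59 controls were left out. Per the file headers the deposited instrument records, which hold other values, gave chip type, lot, scan day and wash record.

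Signals at a common trimmed mean (2% from each end) were raised to the floor and turned to log2. Names came from the platform table, through gene identifiers of RefSeq (GRCr8), which updated 0. The brightest probe set stands for a gene outside the members, which are given by every probe set. Named besides members were up to 4 genes per list and comparison past the 2-fold rule, the 10 nearest to S100g, genes fixed by name, and genes or markers that bear on a member, chosen after their values were seen. The genes fixed by name, Igf1, Pgr and Hsd11b2, were picked for their levels at 6 h in earlier results of these data. Members and lists were chosen with earlier results of these data known. Nothing was tested, because each group is 1 array, and the number of arrays limits the precision. The code that applies the fold rule was checked on simulated arrays, which says nothing about its error rate in these pools. Alternatives were other scalings, floors, a pseudocount, folds and controls. Python 3.11.15 with pandas 2.3.3 was used.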

Additional observations from a re-analysis of the deposited data

Results flagged for a closer look

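S100g differed in opposite directions at the 2 times. The log2 difference of its brighter probe set was 1.46 for estradiol against control at 24 h and -3.41 for the array labelled estradiol against the one labelled control at 6 h. For the dimmer probe set these were 2.93 and -4.93. The difference between the times was not tested, since each group is 1 array. Igf1, Pgr and Hsd11b2, named because earlier results of these data set them against the 6 h labels, were taken by their brightest probe sets. Their differences were 2.96, 1.71 and 2.92 at 24 h and -3.48, -2.53 and -3.06 at 6 h, in the same order. Of the other 4 Igf1 probe sets, M15481_at gave -0.28 at 24 h, opposite in sign, and X06107_r_at gave -0.9 at 6 h, under 2-fold. Of the other 3 of Pgr, 2 were not called at either time.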

How the results depend on the processing

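With scaling to a common median, quantile normalization or a floor at the 60th percentile, 3 member probe sets stayed higher at 24 h and 2 lower on the array labelled estradiol at 6 h. With a floor at the 20th percentile 6 were lower at 6 h, beside 774 of all probe sets. With a 1.5-fold rule 1 was higher there, beside 1069 of all. Against the mean of both controls the brighter S100g probe set differed by 0.66 at 24 h, under 2-fold. Against the control of the other time, chosen after the data were seen, 1 member was higher at 24 h, S100a10. The S100g differences became -0.13 and -0.56. At 6 h 1 member was higher, S100a10 at 1.23, and 2 member probe sets, both of S100g, stayed lower. Of all probe sets 439 were higher and 170 lower there.

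Counts of all probe sets moved with the rule itself. Higher and lower were 511 and 515 at 24 h, 427 and 331 at 6 h, 519 and 582 between the controls and 369 and 572 between the arrays labelled estradiol. In the same order, a floor at the 20th percentile gave 828 and 1045, 719 and 774, 846 and 1050, and 674 and 1092. A floor at the 60th gave 290 and 254, 240 and 184, 270 and 312, and 221 and 300. A 1.5-fold rule gave 911 and 1394, 1069 and 908, 1130 and 1210, and 895 and 1503. A 3-fold rule gave 229 and 121, 136 and 99, 157 and 253, and 134 and 137. A common median gave 598 and 343 between the arrays labelled estradiol. The mean of both controls gave 309 higher at 24 h and 123 lower at 6 h. With the floor at the 60th percentile, Coro1a changed sign to 0.04 at 6 h and to -0.05 between the arrays labelled estradiol, and Cyp24a1 to -0.04 between the controls. With that floor Actn2 (-0.2), Capn6 (-0.61), Cyp24a1 (-0.13), Lcn2 (-0.13), Myh1 (0.2) and Plaur (0.66) were under 2-fold at 24 h. At 6 h so were Atp2b4 (0.26), Il1b (-0.42), Lcn2 (-0.32), Krt18 (-0.97), Krt19 (-0.31), Krt8 (-0.61) and Plaur (-0.37). These values are set by the raised floors. With a pseudocount of 50 Cyp24a1 (-0.92) and Myh1 (0.8) at 24 h and Lcn2 (-0.98) at 6 h fell short too. The cause of the other changes was not tested. No paired analysis was possible because each group has 1 array. A low signal limits Calb2.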

Other observations

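A further probe set, M31178_at, is named for the GenBank record that the platform table pairs with Calb1, but the table gives it no symbol, so it was not counted as a member. Its signal was 87.4 with estradiol against 252.6 in the control at 24 h, at least 2.82-fold lower. At 6 h it read 185.8 under the estradiol label against 148.1 under the control label. The member probe set of Calb1 was under the floor on all 4 arrays.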
